A study of Mus musculus with 23 samples.

Results

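Sox2-positive cells and Sox2-negative cells of batch A were compared in 12 of the 23 RNA sequencing libraries of the series, 6 for each population, taken by the batch and population that the labels give. Both populations came from the labial cervical loop region of the lower incisor of postnatal day 2 mice of a Sox2-GFP line, in which the endogenous Sox2 promoter drives green fluorescent protein. The tissue was kept cold, dissociated with Collagenase and Neutral Protease and sorted by FACS (fluorescence-activated cell sorting), and no other treatment or allele is named. The labels call the Sox2-positive cells dental epithelial stem cells, while the Sox2-negative group is named only by its lack of Sox2 and is not a matched epithelial control. Batch A is 1 experimental day with its own mice, batch B another day with different mice. The labels do not say whether the libraries of a population came from separate mice or from portions of 1 sort, so n counts libraries, and p-values measure the spread between these libraries, which may be technical. Of 54347 genes in the table, 14296 passed the count filter on these 12 libraries and were tested.

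The labial cervical loop is the epithelial fold at the growing end of the mouse incisor, a tooth that is renewed throughout life. Its epithelium, which expresses Sox2, supplies the ameloblasts that secrete enamel, and it is surrounded by neural crest-derived mesenchyme that supplies the odontoblasts and carries vessels, nerves and immune cells. Signals of the FGF, Wnt, BMP and hedgehog families pass between the layers. SOX2 is a transcription factor of many epithelial and neural stem cells, and it is also expressed by immature Schwann cells, the glia of peripheral nerves, so a Sox2 reporter is not limited to epithelium.

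The Sox2-negative libraries held 3711793 to 4831091 counts and the Sox2-positive libraries 3927892 to 5936044 counts. Levels are in CPM, which divides each count by the scaled total of its library, and 3 counts, taken as the smallest visible level, equalled 0.495 to 0.850 CPM. Such floors cover counting error only, because the reads carry no molecular identifiers. The first principal component of the log2 CPM values held 57.5% of the variance and separated the populations, and the second held 6.33% and set Sox2-negative library 6 apart from Sox2-negative libraries 3 and 5. Spearman correlations across genes were 0.928 to 0.943 between Sox2-positive libraries, 0.823 to 0.850 between Sox2-negative libraries and 0.635 to 0.671 across populations. Among 3360 genes with a mean of at least 50 CPM in both populations, the median coefficient of variation was 15.2% in the Sox2-positive and 23.8% in the Sox2-negative libraries, and 77.1% of these genes were more variable in the latter.

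The sort was checked first on Sox2 itself. Sox2 lay between 2.64 and 13.5 CPM (median 6.79) in the Sox2-positive libraries, from 14 to 64 counts a library. It lay between 0 and 0.27 CPM (median 0) in the Sox2-negative libraries, where 5 of 6 had no count and library 4 had 1. The groups did not overlap (exact two-sided permutation test on the mean CPM, p = 0.00217, the smallest that 6 against 6 libraries can give; log2 difference 6.75 ± 0.93 SE; adjusted p = 2.34e-05 in edgeR). Over summed counts the Sox2-positive level was 173 (95% counting interval 30.8 to 6879) times the other, an interval that covers counting error only. Sox2 was thus detected in every Sox2-positive library but at few counts, with the lowest CPM in library 6 and the highest in library 5.

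A gene was called at a Benjamini-Hochberg adjusted p under 0.05 in edgeR's quasi-likelihood test over all 14296 genes. In Sox2-positive cells 2752 genes were called higher, 19.3% of those tested, and 3457 lower, 24.2%. Of the 6209 called genes, 4528 differed by more than 2-fold, 1841 of them higher and 2687 lower. Without any model, 1793 genes (12.5%) had every Sox2-positive library above every Sox2-negative library, and 2220 (15.5%) had every one below. The median log2 fold change over all tested genes was -0.04. A share called near 19.3% or 24.2% in a group of genes is therefore the background of this comparison. In sorted bulk cells, fewer cells of a type and less RNA per cell cannot be told apart.

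**Figure D1:**
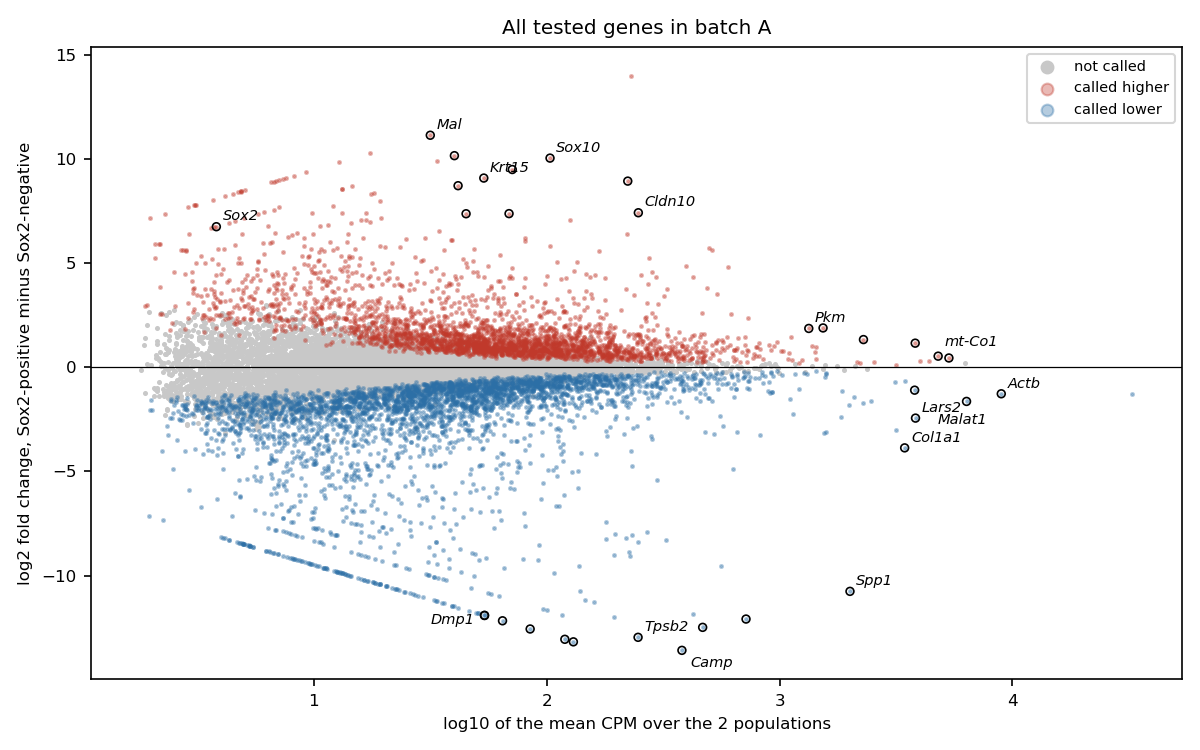
Each point is 1 of the 14296 tested genes, with its mean CPM over both populations on a log10 axis and its log2 fold change, Sox2-positive minus Sox2-negative, on the vertical axis. Red marks 2752 genes called higher and blue 3457 called lower, circles mark Sox2 and the ranked genes of the text (some of them labelled), and the straight lines of points at the upper and lower left are genes with no count, or almost none, in 1 population.

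The highest folds among named genes with at least 50 CPM, predicted genes and pseudogenes left out, belonged mainly to glial and epithelial genes. Mal, a membrane proteolipid of myelin and of epithelial sorting, lay between 52.3 and 81.2 CPM (median 60.4) in the Sox2-positive libraries and had no count in any Sox2-negative library, so it was at least 496-fold higher against a floor of 3 counts over that group. Sox10, the master regulator of the Schwann lineage, lay between 140.0 and 238 CPM (median 213) and between 0 and 0.566 CPM (median 0) (log2 difference 10.04 ± 0.41 SE; adjusted p = 1.60e-11 in edgeR). Both genes were high in all 6 Sox2-positive libraries and at or near 0 in all 6 others.

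Krt15, a keratin of basal epithelial cells, followed with 107 ± 14.1 against 0.184 ± 0.331 CPM, and Cldn10, a tight junction claudin, with 492 ± 23.8 against 2.97 ± 5.52 CPM. Il17re, an epithelial receptor of interleukin 17C, averaged 445 ± 39 against 0.869 ± 0.556 CPM, Gfra3, a receptor subunit for artemin found on Schwann and neural cells, 142 ± 23.9 against 0.181 ± 0.327 CPM, and Atp6v1b1, a proton pump subunit, 83.1 ± 15.7 against 0.179 ± 0.325 CPM. Lrp11 (80.3 ± 11.8 against 0.045 ± 0.11 CPM) and Fam19a4 (89.6 ± 35.3 against 0.539 ± 1.19 CPM) were also among the highest. None of these genes overlapped between populations, as the naming rule required. Their log2 fold changes ran from 7.37 to 11.14, and those of Mal and Lrp11, with 0 and 1 count in the Sox2-negative libraries, depend on the prior count of the fit.

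The lowest folds were almost all of granulocytes and mast cells. Camp, the cathelicidin of neutrophil granules, averaged 762 ± 57.8 CPM in Sox2-negative cells and had 1 count in all Sox2-positive libraries together, a ratio of 22549.7 (95% counting interval 4047 to 890715). Elane and Ltf, further neutrophil granule genes, Cma1 and Mcpt2, mast cell proteases, and Srgn, a granule proteoglycan of blood cells, had no count in any Sox2-positive library and were at least 1668-, 1269-, 2572-, 2324- and 1068-fold lower. S100a8 was 0.282 ± 0.249 against 1436 ± 119 CPM and S100a9 0.142 ± 0.163 against 935 ± 49.6 CPM, and Tpsb2, a mast cell tryptase, had 1 count in the Sox2-positive libraries. Dmp1, an acidic matrix protein of odontoblasts and osteocytes, was the only mineral matrix gene among the 10 and was at least 1039-fold lower. Its Sox2-negative libraries ranged widely, between 37.5 and 199 CPM (median 104).

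Epithelial genes separated the populations in nearly every tested member. Of 22 broad epithelial genes 16 passed the filter, and 15 were called higher, 0 lower and 1 neither, with a median log2 fold change of 3.58 against -0.04 over all genes. Epcam, the epithelial cell adhesion molecule, lay between 773 and 901 CPM (median 794) in Sox2-positive and between 19.8 and 65.1 CPM (median 36.9) in Sox2-negative libraries (log2 difference 4.35 ± 0.22 SE; adjusted p = 2.17e-10 in edgeR). Every Sox2-positive library stood more than 10-fold above every Sox2-negative one, yet all 6 Sox2-negative libraries held Epcam above their floor.

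Keratins 5 and 14, the paired filaments of basal epithelial cells, were 769.9 ± 78.1 against 26.9 ± 7.8 CPM for Krt5 and 994 ± 74.7 against 86.5 ± 15.9 CPM for Krt14. Keratins 8 and 18, the pair of simple and embryonic epithelia, were 230.2 ± 31.1 against 11.8 ± 7.3 CPM for Krt8 and 538 ± 21.3 against 13.9 ± 15.7 CPM for Krt18. Trp63, the regulator of stratified epithelium, was 232 ± 38.9 against 18.4 ± 14.6 CPM. The splicing regulators Esrp1 and Esrp2 (log2 fold changes 3.73 and 4.57) and Grhl2 (2.96), a transcription factor that maintains epithelial junctions, were also called higher. Elf3 was the member not called, with 11 ± 2.85 against 1.42 ± 3.47 CPM; Sox2-negative library 6 held 8.50 CPM and the other 5 none, and without that library it was called higher (adjusted p = 2.66e-05). Krt19, Grhl1, Grhl3, Ovol1, Ovol2 and Ehf did not pass the count filter.

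The broad epithelial list took 0.404% to 0.436% of counts in the Sox2-positive and 0.0208% to 0.0327% in the Sox2-negative libraries. The 6 Sox2-positive libraries therefore lay close together and at least 10-fold above the others, and the epithelial label held for them. The Sox2-negative libraries were not free of epithelial transcripts, and which cells or free RNA these counts came from was not tested.

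The Epcam promoter is printed because Epcam is a defining gene of the sorted epithelium and because CAGGTG and its reverse complement CACCTG, an E-box that ZEB and SNAIL repressors of epithelial genes bind, can be read in it. From the RefSeq promoter table for GRCm38.p6, chr17:87635729-87636028, plus strand, 250 bases before and 50 after the gene's start, 5′ to 3′, with these E-box letters in capitals:

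Epcam promoter: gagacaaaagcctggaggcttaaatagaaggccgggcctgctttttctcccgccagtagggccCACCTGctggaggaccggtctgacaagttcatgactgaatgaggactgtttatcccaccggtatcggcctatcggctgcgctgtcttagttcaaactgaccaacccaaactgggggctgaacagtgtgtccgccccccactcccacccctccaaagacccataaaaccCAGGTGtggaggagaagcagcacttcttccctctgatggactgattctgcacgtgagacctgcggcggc

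Both strands were searched, and the 2 letter strings start at -187 and -19 from the gene's start. At least 1 such string is held by 20.2% of all 32851 windows of this length in the table, and 2 or more by 2.88%. Of the tested broad epithelial genes, 9 are in the table and 7 hold a string within a window. Of the tested broad mesenchymal genes 12 are in the table and 0 do, and the share of all tested genes found there is 20.7%. A match describes letters and not binding.

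The factors that bind such letters were themselves unequal between populations. Of 10 epithelial-mesenchymal switch factors and cadherins 4 were called higher, 6 lower and 0 neither. Zeb1 was 5.56 ± 6.82 against 70.3 ± 19.5 CPM and Snai1 0.751 ± 1.02 against 57.8 ± 11.9 CPM, both lower in Sox2-positive cells, and Zeb2 was also lower (33.1 ± 10.3 against 114 ± 28.9 CPM). Snai2 went the other way with 157 ± 8.65 against 28 ± 14.9 CPM (log2 difference 2.48 ± 0.30 SE; adjusted p = 6.30e-06 in edgeR). Among cadherins, Cdh1, Cdh3 and Cdh6 were higher, with Cdh1 at 90.6 ± 18 against 18.9 ± 13.7 CPM, and the mesenchymal cadherins Cdh2 (-1.75 in log2 fold change) and Cdh11 (-3.29) were lower.

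Junction genes followed the epithelial list. Of 11 tested desmosome genes, whose products rivet epithelial cells together, 10 were called higher, 0 lower and 1 neither (median 3.07). Dsp, which links desmosomes to keratin, was 191 ± 29.5 against 9.26 ± 6.32 CPM, Dsc3 214 ± 34.8 against 6.42 ± 4.93 CPM and Perp 363 ± 24.8 against 53 ± 15.6 CPM. Of 12 tight junction genes 9 were called higher, 0 lower and 3 neither (median 3.27). The claudins supplied most of these, with Cldn8 and Cldn4 at no count in the Sox2-negative libraries and at least 207- and 144-fold higher, while the scaffold gene Tjp1 (25.2 ± 24.1 against 53.8 ± 27.5 CPM) was not called. Without Sox2-positive library 2, Tjp1 was called lower (log2 fold change -1.76; adjusted p = 0.00388), as it was without Sox2-negative library 3 (-1.27; adjusted p = 0.0472).

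Of 13 hemidesmosome and epithelial basement membrane genes 10 were called higher, 0 lower and 3 neither (median 2.41). Lamb3 and Lama3, which encode chains of laminin-332, the anchor of basal epithelium, were higher, at 308 ± 39.6 against 14.2 ± 12.3 CPM and 37.4 ± 11.7 against 4.29 ± 5.08 CPM. Col17a1, the transmembrane collagen of hemidesmosomes, was 131 ± 21.4 against 6.52 ± 6.57 CPM, and Itgb4, its integrin partner, 109 ± 22.5 against 17.1 ± 11 CPM. The desmosome, tight junction and hemidesmosome lists took 0.116% to 0.141%, 0.0849% to 0.11% and 0.158% to 0.176% of Sox2-positive counts, and 0.0133% to 0.02%, 0.0166% to 0.0243% and 0.0493% to 0.0591% of Sox2-negative counts.

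Of the cornification and suprabasal keratinocyte genes only 4 of 17 passed the filter. Krt17, a keratin of epithelial appendages, was 975 ± 61.3 against 18.3 ± 7.99 CPM and Krt1 9.92 ± 3.13 against 1.02 ± 2.29 CPM, both called higher, and Krt10 and Lor were not called. The 13 others, among them Krt4, Krt13, Ivl and Flg, had too few counts. Of 8 Merkel cell genes only Piezo2, a mechanosensitive channel that other cells also express, was tested, at 1.26 ± 1.29 against 159 ± 10.5 CPM.

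Dental epithelial regulators were less uniform than the structural genes. Of 14 tested transcription factors and signals of dental epithelium 8 were called higher, 2 lower and 4 neither, with a median log2 fold change of 1.73. Tbx1, a T-box factor of the cervical loop, lay between 275 and 398 CPM (median 354) in Sox2-positive and between 5.22 and 40.6 CPM (median 14.4) in Sox2-negative libraries (log2 difference 4.26 ± 0.36 SE; adjusted p = 1.22e-07 in edgeR). The groups did not overlap.

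Isl1, a LIM factor of incisor epithelium, was 253 ± 30 against 10.5 ± 5.74 CPM. Sp6, which ameloblasts require, was 565 ± 44.7 against 173 ± 50 CPM, a smaller difference, since Sox2-negative libraries also held it well above their floor. Dlx3, a homeobox factor of enamel and dentin cells, was lower in Sox2-positive cells (104 ± 16.7 against 165 ± 19.7 CPM), as was Lef1, a Wnt effector of the tooth germ (2.42 ± 2.9 against 49.3 ± 18.3 CPM). Msx2, Bcl11b, Nfib and Foxo1 were not called, and Foxi3, Irx1 and Sox21 did not pass the filter.

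Genes reported elsewhere as markers of incisor epithelial stem cells did not move as 1 group. Of 13 tested 5 were called higher, 6 lower and 2 neither in Sox2-positive cells, with a median of -0.98. Of all tested genes 19.3% were called higher and 24.2% lower. Sfrp5, a secreted Wnt antagonist, lay between 259 and 400.4 CPM (median 331) and between 0 and 13 CPM (median 6.91) in Sox2-positive and Sox2-negative libraries (log2 difference 5.56 ± 0.43 SE; adjusted p = 4.16e-08 in edgeR). Lgr5, an R-spondin receptor, was 43.4 ± 12.2 against 2.2 ± 1.71 CPM. Both were higher in every Sox2-positive library than in any other.

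Etv4 and Etv5, transcription factors downstream of FGF receptors, were 137 ± 15.8 against 38 ± 23.1 CPM and 170.3 ± 20.3 against 48.7 ± 22.4 CPM. In contrast Gli1 was 62.1 ± 7.7 against 122 ± 24.2 CPM, Ptch1 140.1 ± 33.1 against 618 ± 92.8 CPM, Igfbp5 86.3 ± 12.1 against 459.8 ± 19 CPM, Abcg2 9.64 ± 4.95 against 83.3 ± 45 CPM, Acta2 32.2 ± 8.09 against 135 ± 22.1 CPM and Fgfr2 70.9 ± 16.8 against 176 ± 33 CPM, all called lower. Dental mesenchyme, vessels or other cells of the region also express these 6 genes. Bmi1 (40.3 ± 14.9 against 29.7 ± 16.5 CPM) and Lrig1 (7.69 ± 5.08 against 16.1 ± 11 CPM) were not called. The list summed to more of the counts in Sox2-negative (0.155% to 0.196%) than in Sox2-positive libraries (0.106% to 0.12%).

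Enamel matrix genes were present in both populations and mostly lower in Sox2-positive cells. Of 12 listed 6 were tested, and 1 was called higher, 4 lower and 1 neither, against 19.3% higher and 24.2% lower of all genes. Amelx, which encodes amelogenin, lay between 248 and 307 CPM (median 279) in Sox2-positive and between 556 and 755 CPM (median 691) in Sox2-negative libraries (log2 difference -1.27 ± 0.09 SE; adjusted p = 1.78e-08 in edgeR). The groups did not overlap, but the Sox2-positive libraries still held Amelx at a readily measured level. Ambn (ameloblastin) was 29 ± 9.06 against 160.5 ± 14.7 CPM and Enam (enamelin) 22.3 ± 4.66 against 45.1 ± 10.6 CPM. Fam83h, needed for enamel mineralization, was the member called higher (22.9 ± 9.82 against 4.43 ± 6.35 CPM), a call lost without some single libraries (adjusted p up to 0.0823), and Mmp20 was not called. Amtn, Odam, Klk4, Odaph, Slc24a4 and Wdr72 did not pass the filter.

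**Figure D2:**
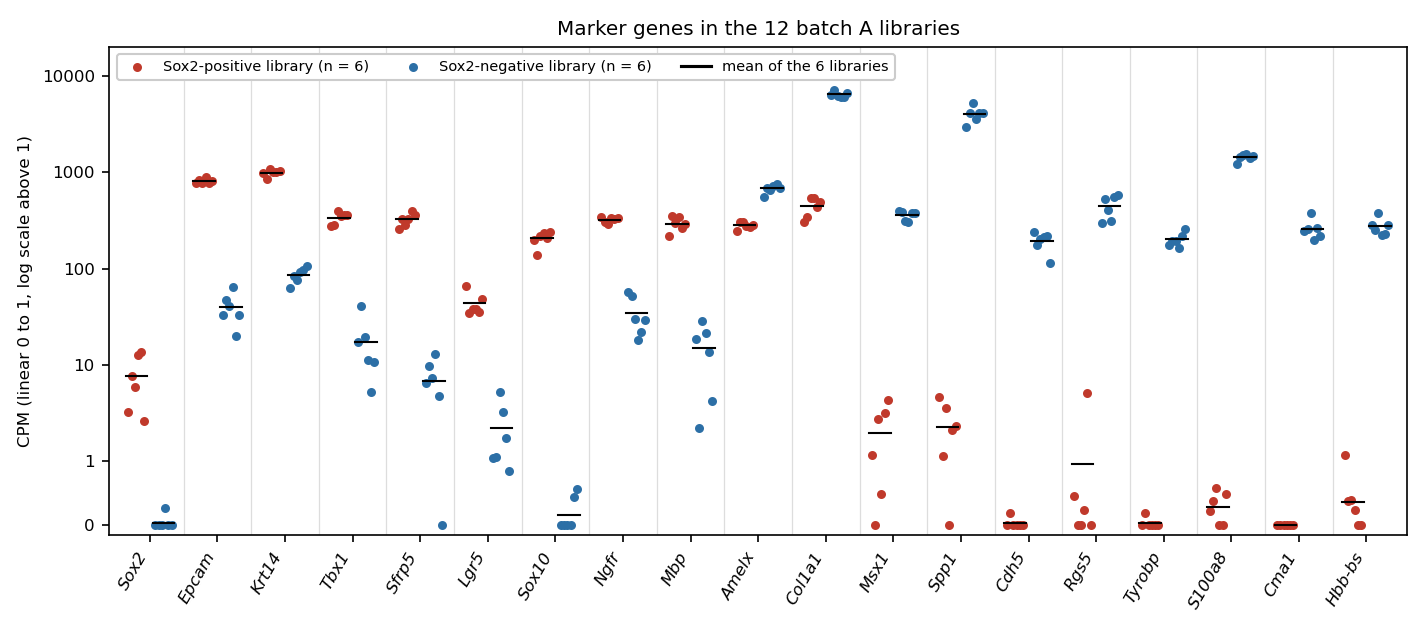
Points are the CPM of 19 marker genes in each of the 6 Sox2-positive (red) and 6 Sox2-negative (blue) libraries, with black bars for the means; the axis is linear from 0 to 1 and logarithmic above. Red points lie above blue points for the 9 genes from Sox2 to Mbp and below them for the 10 genes from Amelx to Hbb-bs. No gene of the plot overlaps, while 12.5% of all tested genes lay wholly higher and 15.5% wholly lower. The genes were picked for the plot and do not stand for their lists. Of 13 reported stem cell markers 6 were called lower, as were Ncam1, S100b and Drp2 of the Schwann lists.

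Besides the epithelium, a glial programme marked the Sox2-positive libraries. Of 13 tested neural crest and early Schwann lineage genes 10 were called higher, 2 lower and 1 neither, with a median log2 fold change of 6.09. Of 15 myelin and mature Schwann cell genes 14 were called higher, 1 lower and 0 neither, with a median of 4.31. The medians were the same with genes that had no count in a population set to their lower bound. The shares called higher stand against a background of 19.3%.

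Ngfr, the low-affinity neurotrophin receptor, lay between 292 and 339.9 CPM (median 329.8) in Sox2-positive and between 18.1 and 56.8 CPM (median 29.5) in Sox2-negative libraries (log2 difference 3.21 ± 0.25 SE; adjusted p = 3.92e-08 in edgeR). Erbb3, the neuregulin receptor of Schwann cells, was 76.9 ± 17.5 against 1.14 ± 1.56 CPM, and Dhh, the hedgehog ligand that Schwann cells secrete, 33.2 ± 7.33 against 0.231 ± 0.371 CPM. Foxd3, a neural crest factor, had no count in the Sox2-negative libraries and was at least 76-fold higher. The glial genes were thus found in each Sox2-positive library, and Erbb3, Dhh and Foxd3 were at or near the floor on average in the others.

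Of the myelin genes, Mbp (myelin basic protein) lay between 215 and 348 CPM (median 295) in Sox2-positive and between 2.19 and 28.7 CPM (median 16.2) in Sox2-negative libraries (log2 difference 4.31 ± 0.43 SE; adjusted p = 8.38e-07 in edgeR). Egr2, which switches on myelination, was 24.9 ± 4.54 against 5.2 ± 5.4 CPM (adjusted p = 0.0545 with all 23 libraries in 1 model), and Prx, a scaffold of myelinating Schwann cells, 47.5 ± 9.9 against 3.61 ± 3.08 CPM. Pmp22 (266 ± 17.2 against 72.7 ± 12.7 CPM) and Cnp (272 ± 32.7 against 21.8 ± 6.66 CPM) were higher as well, though many cell types express them at some level. Ncam1 (129.6 ± 19.3 against 675 ± 178 CPM), S100b (23.8 ± 6.49 against 40.2 ± 12 CPM) and Drp2 (1.76 ± 1.99 against 25.9 ± 9.49 CPM) were the glial-list members called lower, and Tfap2a was not called. The call of S100b was lost without any 1 of 9 libraries (adjusted p up to 0.0993).

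The early Schwann list took 0.135% to 0.16% of Sox2-positive and 0.0606% to 0.101% of Sox2-negative counts, the latter mostly Ncam1, and the myelin list 0.113% to 0.144% and 0.0132% to 0.0177%. The Sox2-positive libraries did not separate into glial and non-glial ones: coefficients of variation of the 2 sums were 6.33% and 8.35% over the 6. The dental epithelial stem cell label therefore names part of what these libraries hold. How much of any difference in a gene that both epithelium and glia express belongs to either was not tested.

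Markers of other neural crest derivatives gave little. Of 9 melanocyte genes 3 were tested, and Dct (37.5 ± 7.81 against 41.4 ± 17.7 CPM) and Mitf were not called while Tyr was lower. Of 10 neuronal genes 3 were tested, with Tubb3, a tubulin of neurons that other cells also express, higher (160.2 ± 25.3 against 54.8 ± 21.6 CPM) and Stmn2 lower, a call lost without some single libraries (adjusted p up to 0.0736). Snap25, Syt1, Elavl3 and Elavl4, Nefl, Nefm and Prph had too few counts to test. Of 12 skeletal muscle genes 3 were tested and none called, with Des, Tnnt1 and Mylpf all under 10 CPM on average in both populations. Of 6 chondrocyte genes 1 was called higher, 3 lower and 2 neither, the higher one being Sox9 (232 ± 25.2 against 60.4 ± 13.4 CPM), a factor that epithelium and neural crest also express. Of the lower ones, Col9a2 lost its call without any 1 of 7 libraries (adjusted p up to 0.0826).

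**Figure D3:**
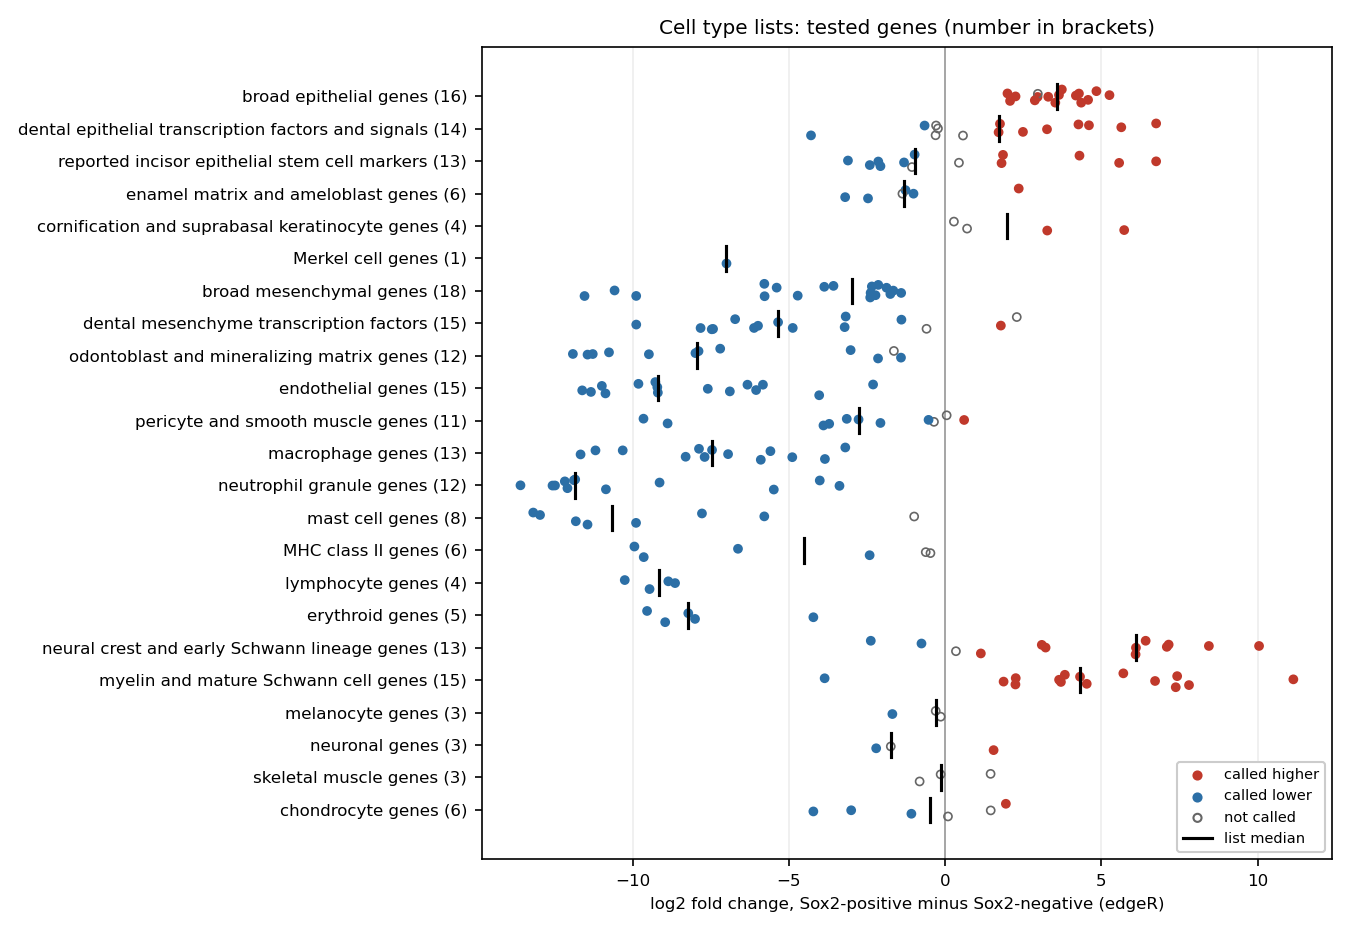
Each point is a tested gene of 1 of the 23 cell type lists, placed at its log2 fold change, Sox2-positive minus Sox2-negative; filled points passed the edgeR test (red higher, blue lower), open points did not, and the black bar is the list's median. The broad epithelial, dental epithelial and both Schwann lists lie mostly to the right of 0, and the mesenchymal, odontoblast, endothelial and immune lists mostly to the left. The stem cell marker and enamel lists have medians to the left (-0.98 and -1.32).

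Mesenchymal genes were lower in Sox2-positive cells without exception among those tested. Of 18 broad mesenchymal genes 0 were called higher, 18 lower and 0 neither, with a median of -2.99, against 24.2% of all genes called lower. Col1a1, the main chain of type I collagen, lay between 302 and 547 CPM (median 462) in Sox2-positive and between 6113 and 7215 CPM (median 6273) in Sox2-negative libraries (log2 difference -3.87 ± 0.14 SE; adjusted p = 3.25e-12 in edgeR). Its lowest Sox2-negative library stood more than 10-fold above its highest Sox2-positive one.

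Members split into those almost absent from Sox2-positive cells and those still present. Twist1 and Twist2, mesenchymal bHLH factors, had no count in any Sox2-positive library, at least 263- and 834-fold lower, and Prrx2 had 1 count in all. Collagen and matrix transcripts remained at a measurable level, with Col1a2 at 588 ± 68 against 3075 ± 282 CPM, Col3a1 at 403 ± 75.4 against 1889.7 ± 332 CPM and Postn at 188 ± 27 against 498 ± 74.6 CPM. The list took 0.189% to 0.251% of Sox2-positive counts, a coefficient of variation of 10.7% over the libraries, and 1.5% to 1.68% of Sox2-negative counts. Schwann cells and their sheaths also make collagens, and which cells or free RNA these counts came from was not tested.

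Of 17 collagen genes 3 were called higher, 12 lower and 2 neither. The 3 higher were Col17a1 of hemidesmosomes, Col18a1 of basement membranes (442 ± 68.9 against 87.2 ± 22.7 CPM) and Col14a1 (26.8 ± 9.31 against 5.2 ± 6.29 CPM). The basement membrane chains Col4a1 (273 ± 79.5 against 641 ± 61.6 CPM) and Col4a2 were lower.

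Of 15 transcription factors of dental mesenchyme 1 was called higher, 12 lower and 2 neither (median -5.35). Msx1 and Runx2, which tooth and bone mesenchyme need to progress, were 1.98 ± 1.68 against 357 ± 39.8 CPM and 3.28 ± 2.09 against 234 ± 53.6 CPM. Lhx8 had no count in the Sox2-positive libraries (at least 261-fold lower), and Alx1 was 1.39 ± 1.25 against 92.1 ± 11.8 CPM. Dlx2, which dental epithelium also expresses, was the 1 member called higher (149 ± 18.8 against 43.5 ± 6.25 CPM), and Dlx1 (41.6 ± 10.1 against 63 ± 19.8 CPM) and Tfap2b (7.27 ± 5.99 against 1.48 ± 3.25 CPM) were not called. Without Sox2-negative library 4, Tfap2b was called higher (log2 fold change 5.36 in place of 2.29; adjusted p = 0.000844) and Dlx1 lower (adjusted p = 0.0167).

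Odontoblast and mineral matrix genes were among the deepest differences. Of 12 tested 0 were called higher, 11 lower and 1 neither, with a median of -7.94. Spp1 (osteopontin) lay between 0 and 4.61 CPM (median 2.21) in Sox2-positive and between 2921 and 5191 CPM (median 4118) in Sox2-negative libraries (log2 difference -10.76 ± 0.36 SE; adjusted p = 1.87e-12 in edgeR). Ibsp, bone sialoprotein, was 2.24 ± 2.08 against 536 ± 86.9 CPM, and Mepe had no count in Sox2-positive cells (at least 773-fold lower). Sparc, a widely expressed collagen-binding protein, differed less (1139 ± 80.2 against 3036 ± 217 CPM). Dspp, the dentin sialophosphoprotein gene, was 8.18 ± 5.88 against 25.5 ± 13.9 CPM and was not called.

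Vascular genes were close to absent from Sox2-positive libraries. Of 15 endothelial genes 0 were called higher, 15 lower and 0 neither (median -9.19). Cdh5, the endothelial cadherin, lay between 0 and 0.188 CPM (median 0) against between 114 and 238 CPM (median 208), and the receptors Kdr and Flt1 averaged 0.264 ± 0.41 against 158 ± 45.7 CPM and 0.0352 ± 0.0863 against 116 ± 34 CPM. Egfl7, which epithelial cells can express, was the member with the highest remaining level (26.4 ± 6.16 against 433 ± 68.9 CPM).

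Pericyte and smooth muscle genes were less uniform, and of 11 tested, 1 was called higher, 8 lower and 2 neither (median -2.77). Rgs5, a pericyte signalling regulator, lay between 0 and 5.07 CPM (median 0.123) in Sox2-positive and between 299 and 588 CPM (median 470.3) in Sox2-negative libraries, and Pdgfrb was 11.9 ± 6 against 157 ± 21.9 CPM. Tagln, an actin-binding protein of smooth muscle and of some epithelia, was higher (65.7 ± 6.94 against 43.2 ± 10.2 CPM), though not without Sox2-positive library 2 (adjusted p = 0.0532).

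Blood and immune cell genes had few or no counts in Sox2-positive libraries. Of 12 neutrophil granule genes 0 were called higher, 12 lower and 0 neither, with a median of -11.86, or -10.51 with genes without counts at their bound. Their sum was 6.34e-05% to 0.00109% of Sox2-positive and 0.431% to 0.504% of Sox2-negative counts. Of 8 mast cell genes 0 were called higher, 7 lower and 1 neither (median -10.67, or -8.78 with such genes at their bound), and the exception was Kit (17.6 ± 7.15 against 35.1 ± 20.1 CPM), a receptor that other cell types also carry.

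Of 13 macrophage genes 0 were called higher, 13 lower and 0 neither (median -7.46). Tyrobp, an adaptor of myeloid receptors, lay between 0 and 0.188 CPM (median 0) against between 165 and 257 CPM (median 194), Lyz2 (lysozyme) averaged 1.93 ± 1.35 against 646 ± 43.5 CPM, and C1qb and C1qc had no count in the Sox2-positive libraries. The 4 tested lymphocyte genes and 5 tested erythroid genes were called lower, against 24.2% of all genes, and 6 and 4 listed ones were not tested. With almost no Sox2-positive counts, the tested ones passed the filter through the Sox2-negative libraries, which fixed their direction in advance. The pan-leukocyte Ptprc was 0.0768 ± 0.188 against 67.7 ± 29.6 CPM and the globin Hbb-bs 0.361 ± 0.425 against 274 ± 57.5 CPM. Of 6 MHC class II genes 0 were called higher, 4 lower and 2 neither. Cd74, the invariant chain of antigen-presenting cells, was 0.141 ± 0.345 against 131 ± 47.2 CPM, while H2-DMa and H2-DMb1 (22.5 ± 8.53 against 31.2 ± 8.63 CPM) were not called. H2-Ab1 kept 17.2 ± 4.85 CPM in Sox2-positive libraries, although Cd74 was near 0 there.

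The summed immune and red cell shares were even over the Sox2-negative libraries. Macrophage genes took 0.116% to 0.133%, mast cell genes 0.0963% to 0.118% and erythroid genes 0.102% to 0.123% of counts, against at most 0.0016%, 0.00279% and 0.000908% in Sox2-positive libraries. Lymphocyte genes were more uneven (0.0122% to 0.0256%).

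**Figure D4:**
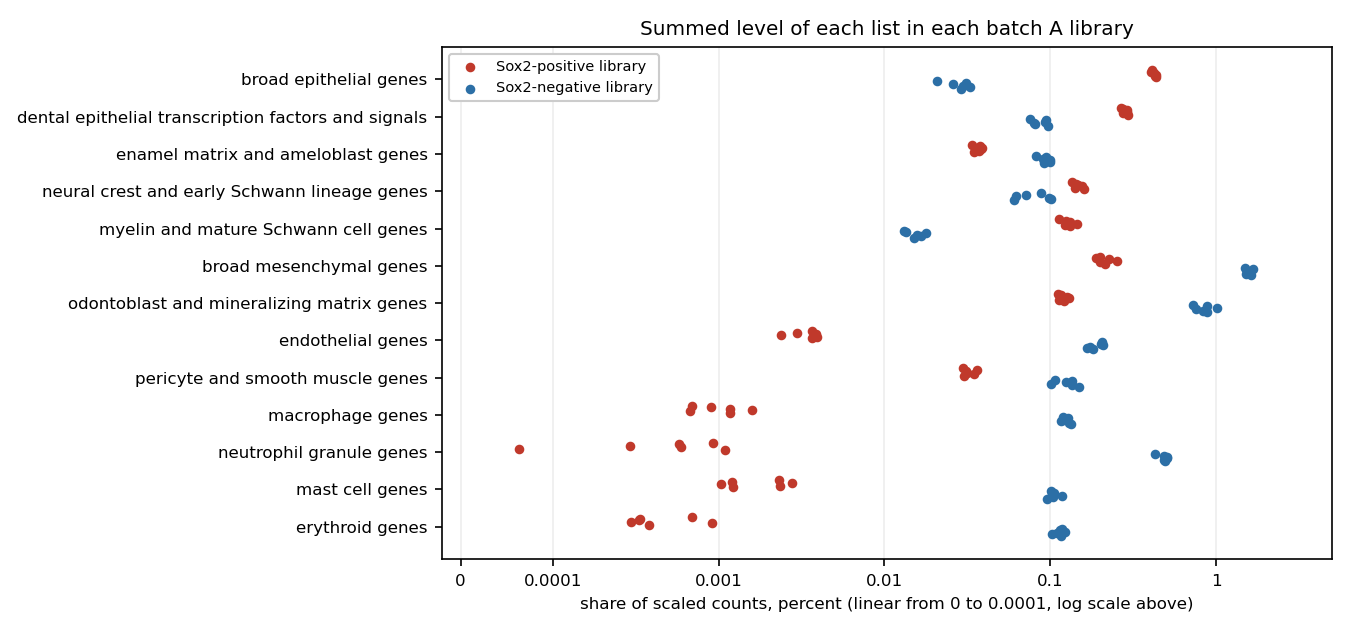
Points give the percent of scaled counts that each of 13 cell type lists took in each of the 12 libraries, on an axis that is linear below 0.0001% and logarithmic above. Sox2-positive libraries (red) lie above Sox2-negative ones (blue) for the 2 epithelial and 2 Schwann lists and below them for the other lists, with the closest approach in the early Schwann list.

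Signalling genes are ordered here by pathway, with ligands first. The counts called in each pathway stand against 19.3% of all tested genes called higher and 24.2% called lower. In the hedgehog pathway, where a ligand binds PTCH receptors and GLI factors carry the response, 4 were called higher, 5 lower and 4 neither of 13. The ligand Shh, expressed by differentiating dental epithelium, lay between 79.9 and 129 CPM (median 107) in Sox2-positive and between 7.08 and 29.7 CPM (median 18.3) in Sox2-negative libraries (log2 difference 2.49 ± 0.29 SE; adjusted p = 4.17e-06 in edgeR), and Dhh was higher too. The targets Ptch1 (log2 difference -2.14 ± 0.16 SE; adjusted p = 2.01e-08 in edgeR), Gli1 (-0.98 in log2 fold change) and Hhip (0.159 ± 0.253 against 95.6 ± 35.3 CPM) were lower. The signal transducer Smo was higher (143 ± 39.1 against 74.6 ± 17.8 CPM).

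Of 18 FGF ligands, receptors and feedback genes 7 were called higher, 6 lower and 5 neither. The epithelial ligand Fgf9 was higher (43 ± 13.3 against 4.45 ± 5.46 CPM), and the mesenchymal ligands Fgf10 (0.0588 ± 0.0913 against 31.6 ± 22.3 CPM) and Fgf3 (no count in Sox2-positive libraries, at least 249-fold lower) were lower. Receptor Fgfr1 was higher (799 ± 87.8 against 349 ± 12.2 CPM) and Fgfr2 and Fgfr3 (19.7 ± 6.81 against 61.9 ± 21.3 CPM) lower. Among genes that FGF signalling induces, Dusp6 lay between 370.1 and 499 CPM (median 455) against between 17.5 and 138 CPM (median 92.8), Etv1 averaged 219 ± 24.6 against 11.5 ± 4.73 CPM and Spry2 213 ± 20.7 against 66 ± 15.6 CPM, all higher, while Spry4 (12.8 ± 4.77 against 42.9 ± 12.5 CPM) was lower.

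Of 33 Wnt pathway genes 8 were called higher, 13 lower and 12 neither, against a background of 19.3% higher and 24.2% lower. The ligands Wnt4 (35.9 ± 10.2 against 9.7 ± 4.4 CPM) and Wnt7a were higher, Wnt5a (4.47 ± 3.97 against 64.5 ± 25 CPM) and Wnt11 lower, and 5 other ligands not called, and the calls of Wnt7a and Wnt11 were lost without some single libraries (adjusted p up to 0.123 and 0.0602). Among genes that the pathway itself induces, Axin2 (2.15 ± 1.83 against 30 ± 18.1 CPM), Notum (1.87 ± 2 against 119 ± 57.1 CPM) and Lef1 were lower, Nkd1 (28.7 ± 8.69 against 32.8 ± 17.9 CPM), Rnf43 (9.01 ± 5.81 against 3.87 ± 2.66 CPM) and Znrf3 (125 ± 16.1 against 88.7 ± 32.1 CPM) were not called, and Sp5 did not pass the filter. Znrf3 was called higher without Sox2-negative library 6 (adjusted p = 0.00233) and in several other settings. Of the secreted antagonists, Sfrp2 (0.854 ± 0.905 against 455 ± 44.7 CPM), Sfrp4 (1.5 ± 1.73 against 436 ± 81.7 CPM), Frzb, Wif1, Dkk1 and Dkk2 were lower, and Sfrp5 and Dkk3 higher. The receptors Fzd1 (221 ± 29.2 against 56.6 ± 26.5 CPM), Lgr4 and Lgr5 were higher and Lgr6 (2.01 ± 3.11 against 35.8 ± 9.83 CPM) lower.

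Of 22 BMP, activin and TGF-beta genes 8 were called higher, 8 lower and 6 neither. Bmp4 (36.7 ± 18.9 against 188 ± 44.4 CPM) and Bmp2 were lower and Bmp7 (120.4 ± 28.2 against 52.7 ± 12.3 CPM) higher. Fst, which encodes follistatin, an activin and BMP inhibitor that restrains enamel formation, was 46.8 ± 13.2 against 7.65 ± 7.07 CPM, and Inhba, an activin subunit gene, 34.8 ± 15.3 against 72.6 ± 20.5 CPM. Id3, a BMP response gene, was 866 ± 66.8 against 566 ± 47.1 CPM, whereas Id1 (115 ± 15.5 against 128 ± 18.5 CPM) and Id2 were not called.

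Of 16 Notch pathway genes 4 were called higher, 6 lower and 6 neither, against a background of 19.3% higher and 24.2% lower. The ligand Jag2 (74.2 ± 17.2 against 27.5 ± 10.8 CPM), the glycosyltransferase Lfng (32.4 ± 8.77 against 5.67 ± 3.05 CPM) and the target Hey2 were higher, while the ligand Jag1 (56.9 ± 8.09 against 88 ± 24.3 CPM), the glycosyltransferase Mfng (2.41 ± 2.44 against 22.7 ± 9.7 CPM) and the target Hey1 (12.9 ± 7.62 against 35.1 ± 21.3 CPM) were lower, so each of these kinds had members in both directions. The call of Jag1 was lost without Sox2-negative library 3 (adjusted p = 0.0529) or Sox2-positive library 1 (adjusted p = 0.0509), and that of Hey1 without Sox2-negative library 3 or 5 (adjusted p = 0.059 and 0.0521). The receptor Notch2 was lower (122 ± 19 against 211 ± 14.4 CPM). Notch3 and Dll4, of mural and endothelial cells, were 3.67 ± 2.09 against 55.1 ± 12.8 CPM and 0.77 ± 1.2 against 22.2 ± 13.9 CPM, both lower, and Notch1 (55.4 ± 12.5 against 82 ± 38.8 CPM) and Hes1 (64.6 ± 13 against 74.6 ± 18.1 CPM) were not called. In the ectodysplasin pathway, which shapes teeth and hair, Edaradd was 111 ± 18.3 against 13.1 ± 10.1 CPM and Tnfrsf19 62.3 ± 16.7 against 217 ± 58.9 CPM. Of 7 ErbB ligands and receptors, Erbb2 (85.3 ± 15.4 against 33.2 ± 12.1 CPM) and Erbb3 were higher and Egfr (8.03 ± 7.98 against 44.8 ± 33.3 CPM) lower. Fibroblast, vessel and Schwann genes separated the same libraries, and their part in these pathway differences was not tested.

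Cell cycle genes were more often higher. Of 22 S and G2/M genes 14 were called higher, 2 lower and 6 neither, with a median of 0.82 against -0.04 over all genes. The background was 19.3% called higher and 24.2% lower. The replication genes Mcm6 (289.6 ± 49.5 against 79.4 ± 12.6 CPM), Rrm2 (284 ± 46.5 against 89.2 ± 25.3 CPM) and Tyms (274 ± 50.1 against 86.8 ± 32.1 CPM) were higher, as was the mitotic cyclin Ccnb1 (159 ± 20.9 against 55.8 ± 27.6 CPM). Top2a was lower (159 ± 26.9 against 235 ± 75.3 CPM; adjusted p up to 0.0582 without single libraries) and Mki67, a proliferation marker, was not called (93.4 ± 13.4 against 119 ± 21.9 CPM). The list took 0.296% to 0.353% of Sox2-positive and 0.185% to 0.221% of Sox2-negative counts.

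Of 14 immediate early genes, which stimuli and dissociation induce within minutes, 7 were called higher, 2 lower and 5 neither. The background was 19.3% higher and 24.2% lower. Fos lay between 574 and 799.8 CPM (median 690.0) in Sox2-positive and between 176 and 287 CPM (median 228) in Sox2-negative libraries (log2 difference 1.61 ± 0.13 SE; adjusted p = 5.73e-08 in edgeR), and Jun averaged 189.6 ± 31 against 36.4 ± 11.3 CPM. Egr3 and Ier3 were lower, and Jund, Atf3 and Zfp36 were not called. Per the labels both populations went through the same dissociation, and whether their cells responded to it alike was not tested.

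Glycolysis genes were higher in most members. Of 16 tested, 13 were called higher, 0 lower and 3 neither, with a median of 0.99, against 19.3% higher and 24.2% lower of all genes. Pkm, the last enzyme of the pathway, lay between 1908 and 2255 CPM (median 2092) against between 488 and 674 CPM (median 572), and Ldha, which makes lactate, averaged 2422 ± 157 against 654 ± 61 CPM. Slc2a1, the glucose transporter GLUT1, was 92.1 ± 13.3 against 23.1 ± 16.7 CPM. The list took 0.943% to 1.04% and 0.415% to 0.471% of counts in Sox2-positive and Sox2-negative libraries. Of 19 cholesterol synthesis genes 7 were called higher, 0 lower and 12 neither (median 0.74), against the same background of 19.3% and 24.2%. Cyp51 was 88.8 ± 20.8 against 21.9 ± 9.02 CPM and Fdps 199.9 ± 26.5 against 85.8 ± 21 CPM. Myelin-forming cells and epithelia both make cholesterol, and which of them carried these counts was not tested.

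**Figure D5:**
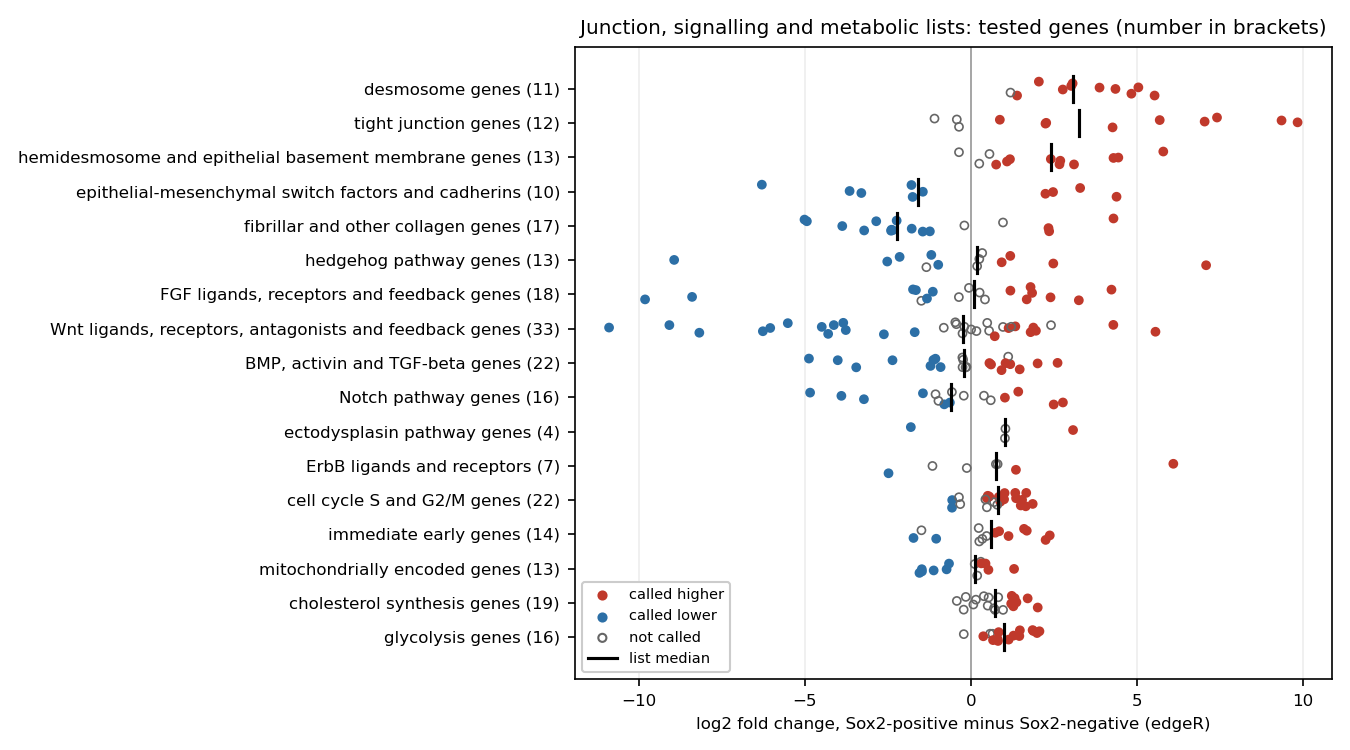
Each point is a tested gene of 1 of the 17 junction, signalling and metabolic lists, at its log2 fold change, Sox2-positive minus Sox2-negative; filled points passed the edgeR test, open points did not, and black bars are list medians. The 3 junction lists have medians to the right of 0, with a few members that were not called to the left, and collagens lie mostly to the left, with 3 called to the right; glycolysis and cell cycle genes cluster just right of 0, and members of signalling pathways spread to both sides.

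The genes with the largest differences in level were of other kinds. H3f3b, a replication-independent histone H3 gene, lay between 5024 and 5634 CPM (median 5233) against between 2305 and 2518 CPM (median 2350.1), and the ubiquitin gene Ubb averaged 3282 ± 156 against 1306 ± 99.7 CPM. Actb was 5249 ± 1196 against 12673 ± 1138 CPM, and Malat1, a nuclear noncoding RNA, 3090.4 ± 828 against 9622 ± 739.9 CPM, both lower in Sox2-positive cells. Lars2, the mitochondrial leucyl-tRNA synthetase gene, was 1194 ± 128 against 6480.2 ± 327 CPM, and its groups did not overlap.

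Mitochondrially encoded genes, transcribed from 1 shared promoter region per strand, did not shift together: of 13 tested, 4 were called higher, 6 lower and 3 neither, with a median of 0.12. Of all tested genes 19.3% were called higher and 24.2% lower. mt-Co1 was 5678 ± 701 against 3922 ± 522 CPM and mt-Atp6 6159 ± 945 against 4520.1 ± 473 CPM, both higher, while mt-Nd1 (2367 ± 282 against 3914 ± 367 CPM), mt-Nd4 (1171 ± 89.7 against 2537 ± 311 CPM) and the ribosomal RNA mt-Rnr2 (2422 ± 127 against 5188 ± 349 CPM) were lower. Their summed share was 2.83% to 3.98% in Sox2-positive and 2.72% to 3.65% in Sox2-negative libraries, ranges that overlap. Pseudogene copies of mitochondrial genes lie in the nuclear genome, and the authors' counting could split reads between such copies, so the level of a single mitochondrial gene is uncertain.

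Batch B allowed a test of which differences were of another size on another day. The interaction was the batch A difference minus the batch B difference in 1 model of all 23 libraries. It was called for 1210 of 17190 genes (7.04%) and for 15 of the 33 ranked genes, Sox2 not among them. The ranked genes were chosen by their batch A values, which enter the interaction, so their share cannot be compared with that of all genes. Il17re differed more in batch A (log2 fold change 8.93 in batch A and 6.94 in batch B, interaction 1.99 ± 0.30 SE; adjusted p = 8.42e-05 in edgeR), and Col1a1 less (log2 fold change -3.87 in batch A and -7.38 in batch B, interaction 3.51 ± 0.24 SE; adjusted p = 1.08e-10 in edgeR). mt-Co1, called higher in batch A, was separated further in batch B (log2 fold change 0.53 in batch A and 2.96 in batch B, interaction -2.43 ± 0.29 SE; adjusted p = 3.68e-06 in edgeR).

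Of the 167 genes that the naming rule takes, 65 had a called interaction, a share that the choice by batch A values limits in the same way. A few that stood out once their values were seen follow. The myelin gene Mbp was less separated in batch B, where it was 17.8 ± 6.92 CPM in Sox2-positive and 11.6 ± 4.83 in Sox2-negative cells (log2 fold change 4.30 in batch A and 0.59 in batch B, interaction 3.72 ± 0.56 SE; adjusted p = 7.29e-05 in edgeR). Amelx was 6.76 ± 1.63 CPM in batch B Sox2-positive cells, and its gap to Sox2-negative cells was wider than in batch A (log2 fold change -1.28 in batch A and -6.02 in batch B, interaction 4.75 ± 0.18 SE; adjusted p = 3.69e-16 in edgeR). Ambn also had a wider gap in batch B (log2 fold change -2.48 in batch A and -6.95 in batch B, interaction 4.47 ± 0.45 SE; adjusted p = 1.90e-07 in edgeR). Shh, called higher in Sox2-positive cells of batch A, had a fitted difference of the opposite sign in batch B (log2 fold change 2.48 in batch A and -0.53 in batch B, interaction 3.01 ± 0.40 SE; adjusted p = 1.06e-05 in edgeR), and Fos did too (log2 fold change 1.60 in batch A and -2.06 in batch B, interaction 3.66 ± 0.33 SE; adjusted p = 3.14e-08 in edgeR). Acta2 was lower in batch A and nearly equal in batch B (log2 fold change -2.08 in batch A and -0.13 in batch B, interaction -1.94 ± 0.22 SE; adjusted p = 9.99e-07 in edgeR). Batches differ by day and by mice, which cannot be told apart here.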

How the data were processed

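RNA was measured in sorted cells by Smart-seq2 with Tn5 tagmentation, per the labels' protocols. The authors deposited a table of estimated counts (expected counts) per gene; the submitters' processing notes name FastQC, Trimmomatic, Salmon and mm10, while versions, the step from transcripts to genes and the strand setting are not given in the sources used here, so overlapping antisense genes cannot be told apart. The deposited expected counts were rounded to whole numbers. Symbols came from GENCODE M21 (54094 identifiers matched, 99.5%), and unused columns of per-sample values numbered 0.

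Groups followed the labels. Differences were tested with edgeR 4.0.16 in R 4.3.3 (TMM scaling, filterByExpr over both groups with a minimum count of 10, quasi-likelihood F test, no covariate), with Benjamini-Hochberg adjusted p under 0.05 over all 14296 genes, two-sided, and the standard error as the absolute log2 fold change over the square root of F. The batch interaction used all 23 libraries and 17190 genes. On simulated counts for 14296 genes, 98 were changed by 1 on the log2 scale and 102 by 2. Of these, 22.4% and 61.8% were called, with 0 of the wrong sign, and 5 unchanged genes were called. In the data 6209 genes were called, far more than were changed in the simulation, so these shares need not hold there. No library pair agreed within sampling noise (lowest chi-square per degree of freedom 13.1). Totals of 3711793 to 5936044 counts set floors of 0.495 to 0.850 CPM.

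Named genes were Sox2, the 10 highest and 10 lowest log2 fold changes among called genes without overlap and with at least 50 CPM in the higher group, the 6 largest rises and 6 largest falls in CPM, and the 4 most abundant tested members of each list; Xist, Y-linked, unnamed and predicted genes and pseudogenes were left out of the ranks, and other list members are named as such. Some genes that this rule takes are not reported here. The comparison and the 40 lists were chosen with earlier results of these data known. Lists are described by counts and medians without a set test. Alternatives were DESeq2 1.42.0, limma-voom 3.58.1, other scalings and filters, a replicate block, all 23 libraries, a newer quasi-likelihood option chosen after seeing the data, and leaving out each library.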

Additional observations from a re-analysis of the deposited data

Results flagged for a closer look

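In 43 of 506 groups of 6 libraries tested (8.5%), 1 library stood apart from the other 5, its gap to the nearest of them, as a share of the whole range, passing Dixon's 95% limit for 6 samples. For normally distributed values this limit flags about 1 group in 20. The CPM values tested include many near 0 and need not be normal, so the 8.5% cannot be compared with that rate. The flagged values of Gfra3, Krt15 and Atp6v1b1 in Sox2-negative libraries lay at the floor of 3 counts. The groups tested were the library totals, the summed lists and the genes named in the text, and groups of 3 counts or fewer were left out. Sox2-positive library 1 stood high with 1.15 CPM of Hbb-bs (0 to 0.393 in the others). Sox2-positive library 2 stood high with 7959.5 CPM of mt-Atp6 (5407 to 6336 in the others), 129.8 CPM of Cyp51 (75.6 to 90.9 in the others) and 8.07 CPM of Lgr6 (0 to 2.55 in the others). Sox2-positive library 2 also held 72.8 CPM of Tjp1 (8.86 to 24.7 in the others) and 19 CPM of Zeb1 (0 to 5.3 in the others). Sox2-positive library 3 stood high with 7.46 CPM of Frzb (0 to 1.49 in the others), 72.6 CPM of Jag1 (49.3 to 57.1 in the others) and 159 CPM of Notch2 (104 to 119.6 in the others). Sox2-positive library 4 stood high with 46.5 CPM of Ambn (22.6 to 31.1 in the others), 2.95 CPM of Bmp2 (0 to 0.211 in the others) and 58.3 CPM of Cdh11 (21.7 to 33.8 in the others). Sox2-positive library 4 also held 722 CPM of Col1a2 (536 to 594 in the others), 169 CPM of Nfib (87.3 to 112 in the others) and 4.92 CPM of Wnt11 (0 to 1.77 in the others). Sox2-positive library 4 also held 22.1 CPM of Wnt7a (6.67 to 11.8 in the others). Sox2-positive library 5 stood high with 0.845 CPM of Cd74 (none in the others), 51.8 CPM of Dct (30.5 to 38.5 in the others) and 5.07 CPM of Rgs5 (0 to 0.461 in the others). Sox2-positive library 6 stood high with 289.8 CPM of Krt8 (208 to 237 in the others). Sox2-negative library 1 stood high with 0.804 CPM of Atp6v1b1 (0 to 0.27 in the others) and 2.95 CPM of Fam19a4 (0 to 0.283 in the others). Sox2-negative library 2 stood high with 52.2 CPM of Dspp (12.9 to 26.6 in the others). Sox2-negative library 3 stood high with 0.82 CPM of Krt15 (0 to 0.283 in the others), 13.9 CPM of Cldn10 (0 to 3.24 in the others) and 381 CPM of Cma1 (199 to 261 in the others). Sox2-negative library 3 also held 2518 CPM of H3f3b (2305 to 2380.0 in the others) and 245 CPM of Kdr (121 to 165 in the others). Sox2-negative library 4 stood high with 0.811 CPM of Gfra3 (0 to 0.273 in the others), 9.73 CPM of Cdh6 (1.96 to 4.83 in the others) and 5.68 CPM of Krt1 (0 to 0.439 in the others). Sox2-negative library 4 also held 8.11 CPM of Tfap2b (0 to 0.546 in the others) and 0.02% of desmosome genes (0.0133 to 0.0153 in the others). Sox2-negative library 5 stood high with 6.09 CPM of Esrp2 (0 to 0.811 in the others), 17 CPM of Fam83h (0 to 3.75 in the others) and 156 CPM of Notch1 (42.1 to 82.7 in the others). Sox2-negative library 6 stood high with 64.9 CPM of Axin2 (16.2 to 31.6 in the others), 8.5 CPM of Elf3 (none in the others) and 149.8 CPM of Znrf3 (60.3 to 90 in the others). Sox2-negative library 1 stood low with 1209.6 CPM of S100a8 (1420.3 to 1539.7 in the others), 363 CPM of Ibsp (543 to 592 in the others) and 0.431% of neutrophil granule genes (0.485 to 0.504 in the others). Sox2-negative library 2 stood low with 31.4 CPM of Dlx2 (42.9 to 48.3 in the others).

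The population difference was not the same in batch A and batch B, by the edgeR interaction test at an adjusted p under 0.05, for 15 of the 33 ranked genes and for 6 further genes chosen after their values were seen. The 33 were ranked on batch A values that enter this test. On the log2 scale, batch A minus batch B, the difference was above 0 for Lrp11 (6.26), Gfra3 (5.08), Il17re (1.99), Atp6v1b1 (3.34), Fam19a4 (4.28) and Ldha (0.95). It was also above 0 for Pkm (0.78), Col1a1 (3.51), Amelx (4.75), Ambn (4.47), Mbp (3.72), Shh (3.01) and Fos (3.66). It was below 0 for Camp (-5.13), Cma1 (-7.17), H3f3b (-0.53), mt-Co1 (-2.43), mt-Atp6 (-1.01), Malat1 (-1.47), mt-Rnr2 (-0.65) and Acta2 (-1.94). Of these, Gfra3, Atp6v1b1, Camp, Cma1 and Pkm lost the call without at least 1 single library.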

How the results depend on the processing

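The counts of called genes over the whole table stayed within 1.5 times their value under every alternative run. The number called ranged from 5829 (replicate block) to 8502 (all 23 libraries in 1 model), against 6209, and from 5805 to 6300 without single libraries. Calls over 2-fold ranged from 4427 to 6212 and, without single libraries, from 4408 to 4719. Genes without overlap ranged from 1793 to 2021 higher and from 2052 to 2220 lower under other scalings, and from 1890 to 2008 and 2305 to 2399 without single libraries. Called interactions ranged from 1186 to 1675 and, without single libraries, from 938 to 1254. Sox2 kept its call throughout, with log2 fold changes of 5.38 to 8.10. Total-count scaling moved the median of all genes from -0.04 to 0.05 and the calls to 3113 higher and 3193 lower. The labels do not say whether the replicate numbers pair libraries. Deviations of same-numbered libraries correlated between -0.028 and 0.012, and 1 of 6 Sox2-positive libraries correlated best with its own number. Because the populations are different cells, such values cannot decide whether same-numbered libraries shared mice or a sort. The replicate block left 5829 calls.

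Broad mesenchymal (18 lower), macrophage (13), neutrophil (12), neural crest and Schwann (10 higher) and switch factor lists kept these counts in every setting; broad epithelial genes had 15 to 19 called higher, myelin genes 14 or 15, Wnt genes 6 to 12 higher and cell cycle genes 12 to 18 higher. List counts that moved by over 1.5 times were small: called higher, enamel genes 0 to 3 (1 as reported), dental mesenchyme factors, neuronal and ectodysplasin genes 1 to 2 (1), pericyte genes 0 to 1 (1), skeletal muscle genes 0 to 2 (0) and mitochondrial genes 4 to 7 (4). Called lower, they were lymphocyte genes 4 to 7 (4), cell cycle genes 1 to 4 (2), early Schwann genes 1 to 2 (2), Merkel cell and melanocyte genes 1 to 2 (1), neuronal genes 0 to 2 (1), skeletal muscle genes 0 to 2 (0), and tight junction, hemidesmosome and glycolysis genes 0 to 1 (0). Among the genes named by the rule or in the text, calls lost without single libraries were S100b (9 of 12 libraries, adjusted p up to 0.0993), Wnt7a (11, 0.123), Fam83h (7, 0.0823), Col9a2 (7, 0.0826), Stmn2 (5, 0.0736), Wnt11 (4, 0.0602), Top2a (4, 0.0582), Jag1 (2, 0.0529), Hey1 (2, 0.059) and Tagln (Sox2-positive library 2, 0.0532). Calls gained without single libraries, with the lowest adjusted p, were higher for Elf3 (Sox2-negative 6, 2.66e-05), Tfap2b (Sox2-negative 4, 0.000844), Znrf3 (Sox2-negative 6, 0.00233), Eda (Sox2-negative 6, 0.00274), Krt10 (Sox2-negative 3, 0.0423), Sqle (2 libraries, 0.0213), Jund (2, 0.0472) and mt-Co3 (3, 0.0143), and lower for Tjp1 (2, 0.00388), Kit (4, 0.0306), Dlx1 (Sox2-negative 4, 0.0167), Dspp (Sox2-positive 6, 0.0314), Mmp20 (Sox2-negative 6, 0.0318) and Notch1 (Sox2-negative 3, 0.0386). Of genes not called, DESeq2 called Dspp and Kit lower (adjusted p = 0.0296 and 0.0326) and Elf3, Krt10, Sqle and Znrf3 higher (0.0362, 0.0408, 0.0477 and 0.0355). Limma-voom called the same genes in the same directions, and also Tjp1 and Rbfox3 lower (0.0161 and 0.0493) and Tfap2b and Eda higher (0.013 and 0.00778). Interactions lost without 1 batch B library were those of Gfra3 (2.88, adjusted p = 0.202, Sox2-negative 4), Atp6v1b1 (2.53, 0.0877, Sox2-negative 2), Camp (-2.93, 0.923, Sox2-positive 1) and Cma1 (-6.64 and -6.59, Sox2-positive 2 or 6); that of Pkm was lost under both other scalings (0.75 and 0.73) and without 15 single libraries.

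Some log2 fold changes near 0, called in no setting, changed sign. Without single libraries, Dct ranged from -0.29 to 0.037, Mitf from -0.56 to 0.31, Des from -0.63 to 0.56, Nkd1 from -0.35 to 0.078 and Srebf2, a sterol regulator, from -0.053 to 0.18. With limma-voom Mitf was 0.52, Des 0.19 and Nkd1 0.030, and with the replicate block Mitf was 0.48 and Des 0.46. The cause of these changes was not tested. At this depth levels under 3 counts, 0.495 to 0.850 CPM, could not be told from 0.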

Other observations

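All 12 libraries held counts both of Xist, which female cells transcribe from the inactive X, and of the Y-linked genes Ddx3y, Eif2s3y, Kdm5d and Uty. Xist lay between 177 and 269.9 CPM (median 219) in the Sox2-positive libraries and between 572 and 817 CPM (median 677) in the Sox2-negative libraries, so that the groups did not overlap. Ddx3y lay between 11.1 and 38 CPM (median 23) in Sox2-positive and between 14.5 and 60.3 CPM (median 25) in Sox2-negative libraries, so that the groups overlapped. Each library therefore held RNA of cells of both sexes, and no library stood apart as from 1 animal of 1 sex.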
